A study of Mus musculus with 20 samples.

Results

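Immediate early genes are transcribed within minutes of a stimulus without new protein synthesis, and 10 of them were read in sorted blood stem and progenitor cells of the mouse. The genes were Fos, Fosb, Jun, Junb, Jund, Egr1, Ier2, Dusp1, Nr4a1 and Klf4, taken by symbol out of 55573 genes in the count files, without use of their values. All cells came from the bone marrow of C57BL/6 mice aged 7 to 9 weeks, pooled from 2 mice per sample, with no treatment or engineered allele named in the labels. They lacked lineage antigens and carried Sca-1 and c-Kit. Haematopoietic stem cells (HSC) were sorted as CD150+CD48- and multipotent progenitors (MPP) as CD150-CD48-, and an antibody against the leptin receptor split each into cells with it (Lepr+) or without it (Lepr-) on the surface. The 4 groups had 5 libraries each, made from 1000 to 8000 cells. The study asked how expression varied with cell type and with Lepr status. RNA was measured per gene as counts of read pairs, given below per 1000000 counts of the library (CPM).

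AP-1 is a dimer of a Fos and a Jun protein, or of a pair of Jun proteins, held together by leucine zippers and bound to short DNA sites. Growth factors, cytokines and stress reach these genes through MAP kinases, which activate serum response factor with its Elk partners and the cyclic-AMP response factor CREB, and the mRNA appears quickly. Decay factors such as tristetraprolin soon remove it. In blood stem cells, Egr1 is known as a regulator of quiescence and of retention in the niche. The same genes are known to respond to tissue dissociation and cell sorting.

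Such stimuli are known to act through short DNA elements in the promoters, and 4 promoters are printed here, of genes that differed in how their levels were spread over the libraries, as described below. Each line holds the 250 bases before the RefSeq transcription start (GRCm38.p6), 5′ to 3′. The windows are chr4:95052223-95052472 on the minus strand for Jun, chr17:26508473-26508722 on the minus strand for Dusp1, chr12:85473640-85473889 on the plus strand for Fos and chr15:101266596-101266845 on the plus strand for Nr4a1. Capitals mark a core cyclic-AMP response element (CRE, TGACG), a full CRE (TGACGTCA, which holds the core on each strand) or the AP-1-like site of the Jun promoter (TGACATCA), searched on both strands, so that a minus-strand core reads CGTCA.
Jun: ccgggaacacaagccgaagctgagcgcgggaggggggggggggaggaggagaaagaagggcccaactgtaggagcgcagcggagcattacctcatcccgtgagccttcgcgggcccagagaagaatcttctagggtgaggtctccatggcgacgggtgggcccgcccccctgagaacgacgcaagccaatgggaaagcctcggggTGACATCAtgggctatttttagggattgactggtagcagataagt
Dusp1: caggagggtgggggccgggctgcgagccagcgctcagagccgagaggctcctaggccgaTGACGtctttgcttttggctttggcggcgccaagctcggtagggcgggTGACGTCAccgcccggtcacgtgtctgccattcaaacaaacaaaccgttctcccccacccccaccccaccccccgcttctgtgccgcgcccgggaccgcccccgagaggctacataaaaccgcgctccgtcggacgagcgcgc
Fos: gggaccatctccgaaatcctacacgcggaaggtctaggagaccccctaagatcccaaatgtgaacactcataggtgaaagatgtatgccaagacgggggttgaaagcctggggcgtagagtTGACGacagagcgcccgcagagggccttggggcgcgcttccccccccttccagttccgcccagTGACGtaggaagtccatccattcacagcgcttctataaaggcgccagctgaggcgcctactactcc
Nr4a1: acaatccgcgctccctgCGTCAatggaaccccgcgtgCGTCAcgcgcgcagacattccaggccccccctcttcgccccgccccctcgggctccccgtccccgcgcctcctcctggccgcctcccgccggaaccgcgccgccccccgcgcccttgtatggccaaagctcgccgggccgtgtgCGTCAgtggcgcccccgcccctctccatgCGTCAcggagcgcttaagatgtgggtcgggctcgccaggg
Windows of 8 of the 10 genes were read from the RefSeq table. The AP-1-like site was found in Jun alone among the 8, with its first base 45 bases before the start, and 2.9% of 32851 promoter windows of the same length held it. The full CRE was found only in Dusp1 among the 8, with its first base 143 bases before the start, against 1.5% of all windows. Core CREs stood at 4 places in Nr4a1 and at 2 in Fos, and 17.8% of all windows held at least 1. Fosb, Junb and Klf4 each held 1 core CRE, and Jund held none of the motifs in the window of its RefSeq start. The consensus AP-1 site TGANTCA (6.7% of windows) and the CArG box bound by serum response factor (1.5% of windows) were absent from all 8 windows, and a TATA box (TATAAA, 12.4% of windows) was found only in Fos among the 8. A match in letters is not evidence that a factor binds there. Egr1 and Ier2 had no window, and bases farther than 250 from the start were not searched. A motif absent from a window may therefore still stand elsewhere near the gene.

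The 20 libraries held between 9532993 and 31589794 counts in genes, and a gene at 0 counts could still have stood at 0.0870 to 0.337 CPM, the level of 3 counts, depending on the library. Slamf1, which encodes CD150, had 19.6 to 66.6 CPM in Lepr+ HSC, compared with 0 to 8.07 CPM in Lepr+ MPP. Of 10 stem cell and gate markers, 1 rose in Lepr- HSC over Lepr- MPP, Slamf1, in the edgeR test described below with group only. The 4 that fell there were Cd48, Flt3, Hlf and Ly6a. In Lepr+ HSC over Lepr+ MPP only Flt3 passed, and it fell. Markers of other marrow cells were summed per library, and not all sums are given here. The 8 B cell markers summed to 51.0 to 593 CPM in Lepr+ HSC, compared with 42.4 to 105 CPM in Lepr- HSC. In Lepr+ MPP they summed to 66.9 to 4477 CPM, compared with 56.6 to 85.8 CPM in Lepr- MPP. Of the 5 tested, 0 passed with group only in either cell type, and Igkc rose in both with replicate number as a block. The part of B cells in the levels below was not tested. The 12 stromal markers summed to 40.7 to 244 CPM in Lepr+ HSC, compared with 23.7 to 253 CPM in Lepr- HSC, and to 159 to 3373 CPM in Lepr+ MPP, compared with 55.8 to 89.2 CPM in Lepr- MPP, where Lum, Adipoq and Pdgfra were at 0. The 10 endothelial markers summed to 101 to 190.1 CPM in Lepr+ HSC, compared with 68.2 to 115 CPM in Lepr- HSC, and to 164 to 668 CPM in Lepr+ MPP, compared with 55.2 to 172 CPM in Lepr- MPP. In Lepr+ MPP over Lepr- MPP, 6 of the 12 stromal and 4 of the 10 endothelial markers passed the edgeR test described below. In such bulk samples, fewer cells of a type and less RNA per cell cannot be told apart. An earlier reading of these data had set apart Lepr+ MPP replicates 4 and 5 and Lepr+ HSC replicate 5 as least like their groups. Without these 3, edgeR called 0 of 17935 genes in Lepr+ MPP over Lepr- MPP, with 793 at an unadjusted p under 0.05, so the calls of these 10 markers were lost. Other calls with group only that were lost without the 3 libraries are given both ways.

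The 10 genes stood at very different levels. Per kilobase of exon, Ier2 was highest, with a mean of 90.6 CPM per kilobase over the 20 libraries, at the 96.1 percentile of 16502 genes. Junb (19.9), Jun (16.7) and Dusp1 (16.0 CPM per kilobase) followed close together, with SDs between libraries from 7.43 to 12 CPM per kilobase that exceeded the steps between their means. Egr1 had 9.03 ± 5.21 CPM per kilobase, Jund 3.18 ± 1.73, Nr4a1 2.30 ± 1.28 and Fos 1.05 ± 1.16. Klf4 (0.327 CPM per kilobase) and Fosb (0.109) were lowest, with 0 counts in 7 and 5 of the 20 libraries. Apart from the steps between Ier2 and Junb and between Egr1 and Jund, neighbours in this order lay closer together than the larger of their SDs. Fos stood at the 27.4 percentile and was at 0 in 4 libraries, and all 10 genes passed the filter on low counts.

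**Figure D1:**
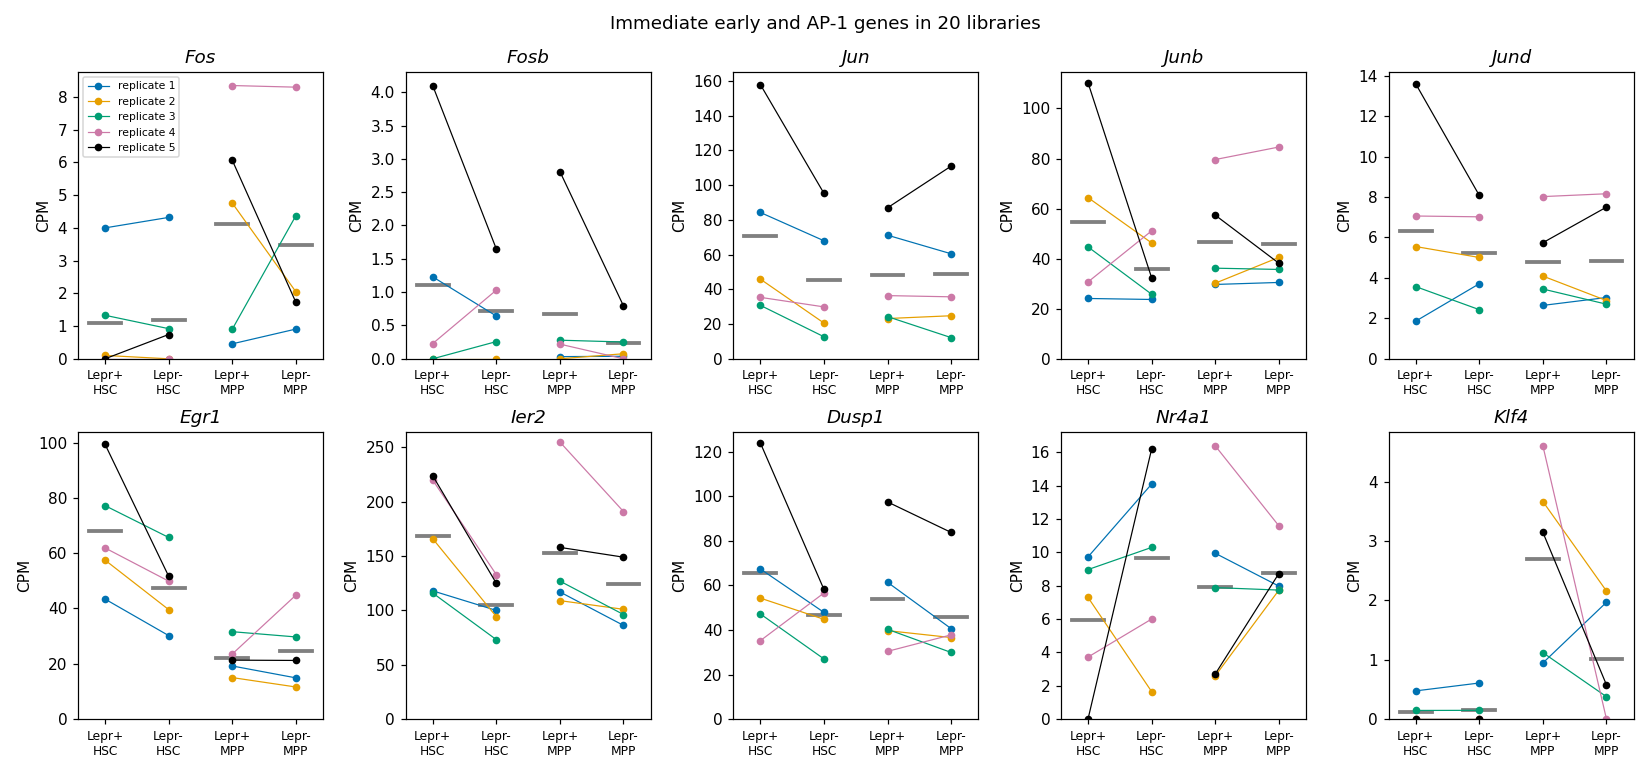
CPM of each gene (y axis, linear, own scale per panel) in the 20 libraries by group (x axis), with a line joining the Lepr+ and Lepr- library of a replicate number and a grey bar for the group mean. Egr1 in Lepr+ HSC (43.4 to 99.4 CPM) lay wholly above Lepr+ MPP (15 to 31.6 CPM), and Ier2 was higher in Lepr+ than in Lepr- in 5 of 5 pairs of both cell types.

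Egr1 was higher in HSC than in MPP among Lepr+ cells, 3.07-fold in the fit, and the remaining 9 genes did not pass in that comparison. Between Lepr+ and Lepr- cells, none of the 10 passed in HSC or in MPP with group as the only term. Quasi-likelihood tests in edgeR, two-sided, with Benjamini-Hochberg adjustment over 16509 genes were used throughout, with a threshold of 0.05. In Lepr+ HSC over Lepr+ MPP, 1 of the 10 was called, where 0.466% of all genes were, and DESeq2 and limma voom each called 1. In Lepr- HSC over Lepr- MPP, 0 of 10 were called (2.73% of all genes), with 1 at an unadjusted p under 0.05 and 0 by DESeq2 and by voom. In Lepr+ HSC over Lepr- HSC, 0 of 10 were called (0.103% of all genes), again with 1 at an unadjusted p under 0.05 and 0 by DESeq2 and voom. In Lepr+ MPP over Lepr- MPP, 0 of 10 were called (0.200% of all genes), with 0 at an unadjusted p under 0.05 and 0 by DESeq2 and voom. The difference between HSC and MPP in the Lepr+ over Lepr- change passed in 0 of the 10, with 0 at an unadjusted p under 0.05 and 0 by DESeq2 and voom. Of all genes 0% passed it in edgeR, with 529 at an unadjusted p under 0.05, and DESeq2 called 19 and voom 0.

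Each replicate number joined 4 libraries, 1 of each group, and was read as 1 pool of mice. With replicate number as a block, edgeR called Ier2 in Lepr+ HSC over Lepr- HSC (1 of 10, against 1.02% of all genes). It called Egr1 in Lepr- HSC over Lepr- MPP (1 of 10, against 7.50%) and in Lepr+ HSC over Lepr+ MPP (1 of 10, against 1.77%). It called 0 of 10 in Lepr+ MPP over Lepr- MPP (0.103% of all genes), and 0 of 10 for the difference between cell types (0% of all genes). With group only, the median log2 fold change of the 10 was 0.50 in Lepr+ over Lepr- HSC, where that of all tested genes was -0.00. With the block it was 0.25 there (all genes -0.03). In Lepr+ over Lepr- MPP it was 0.13 with group only (all genes 0.01) and 0.19 with the block (all genes -0.02). With group only it was -0.04 in Lepr- HSC over Lepr- MPP (all genes 0.01) and 0.26 in Lepr+ HSC over Lepr+ MPP (all genes -0.02).

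**Figure D2:**
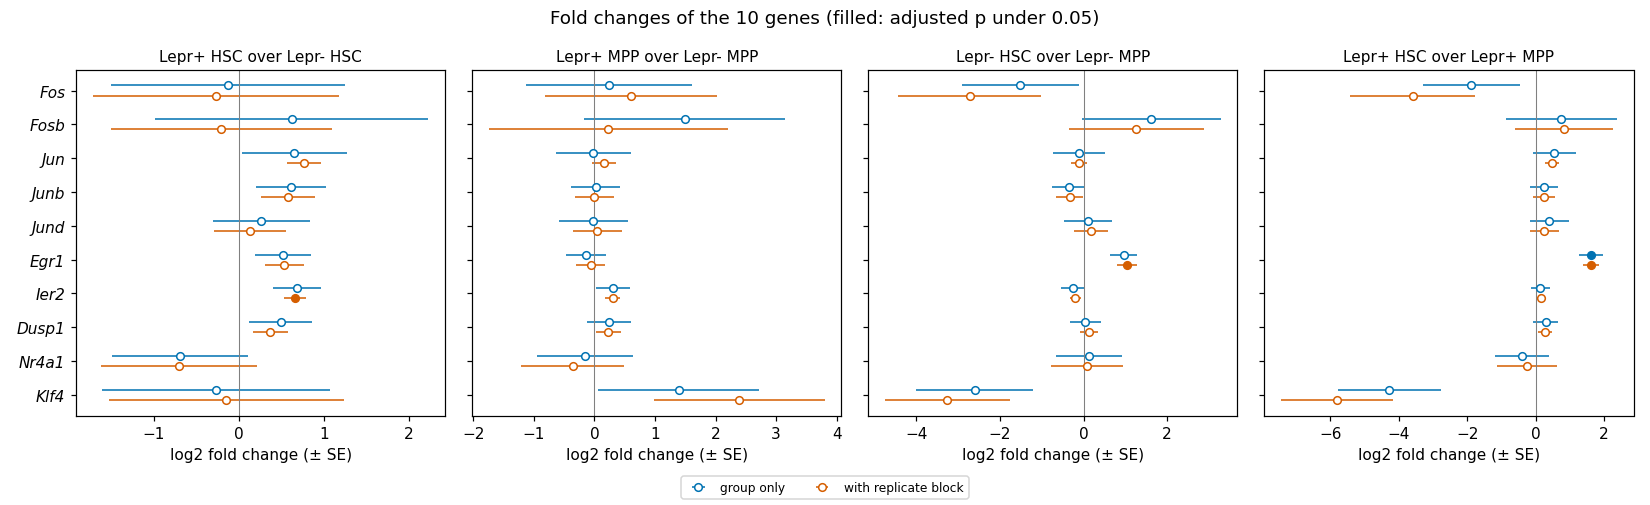
Log2 fold change (x axis) with its standard error (bars) of the 10 genes (rows) in 4 comparisons (panels), from edgeR with group only (blue) and with replicate number as a block (orange). Filled points passed an adjusted p of 0.05, which held for Egr1 in both HSC over MPP comparisons and for Ier2 in Lepr+ over Lepr- HSC, in all but Lepr+ HSC over Lepr+ MPP only with the block.

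Fos and Fosb encode the Fos partners of AP-1, which bind DNA only together with a Jun protein. Fos (ENSMUSG00000021250.13, GRCm38 chromosome 12 from 85473890 to 85477273, 4 exons) had 4.0, 0.103, 1.33, 0 and 0 CPM in replicates 1 to 5 of Lepr+ HSC and 4.32, 0, 0.921, 0 and 0.742 CPM in those of Lepr- HSC. In Lepr+ MPP the values were 0.457, 4.76, 0.901, 8.35 and 6.07 CPM, and in Lepr- MPP 0.908, 2.05, 4.37, 8.30 and 1.73 CPM. In both HSC groups replicate 1 was highest, in both MPP groups replicate 4 was, and the groups overlapped. The log2 fold change was -1.88 ± 1.42 (SE) in Lepr+ HSC over Lepr+ MPP (adjusted p = 0.911) and -1.51 ± 1.40 in Lepr- HSC over Lepr- MPP (adjusted p = 0.795). Between Lepr+ and Lepr- cells it was -0.13 ± 1.38 in HSC (adjusted p = 1.000) and 0.24 ± 1.37 in MPP (adjusted p = 1.00). Without the 3 libraries set apart above, the change of Fos was -0.57 ± 1.60 in Lepr+ HSC over Lepr+ MPP and -0.76 ± 1.57 in Lepr+ over Lepr- MPP. Fos had 971 counts over the 20 libraries, and within Lepr- HSC it ranged from 0 to 128 counts. Fosb (ENSMUSG00000003545.3, chromosome 7 from 19302696 to 19310051) held 190 counts in all. Its replicate 5 was highest in all 4 groups, at 4.10 CPM in Lepr+ HSC, compared with 1.65 CPM in Lepr- HSC. In Lepr+ MPP it stood at 2.81 CPM, compared with 0.794 CPM in Lepr- MPP. No other library passed 1.23 CPM. Adjusted p for Fosb ran from 0.831 to 1.00 over the 4 comparisons.

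The Jun proteins can pair with Fos proteins or with each other, and JunB and JunD are known to oppose c-Jun at some targets. Jun (ENSMUSG00000052684.4, chromosome 4 from 95049034 to 95052222, 1 exon) had 84.3, 45.9, 30.8, 35.4 and 158 CPM in replicates 1 to 5 of Lepr+ HSC, and 68.0, 20.6, 12.7, 29.9 and 95.3 CPM in those of Lepr- HSC. It had 71.2, 23.2, 24.3, 36.4 and 87.0 CPM in Lepr+ MPP, compared with 60.5, 24.8, 12.2, 35.7 and 111 CPM in Lepr- MPP. Replicates 1 and 5 were the highest in every group, and the groups overlapped. Jun was higher in Lepr+ than in Lepr- HSC in 5 of 5 pairs, by 0.65 ± 0.62 on the log2 scale with group only (adjusted p = 1.000) and by 0.76 ± 0.20 with the block (adjusted p = 0.0990). With group only and without the 3 libraries it was 0.12 ± 0.63. In Lepr+ over Lepr- MPP it was 3 of 5 pairs and -0.02 ± 0.62 (adjusted p = 1.00). In HSC over MPP, Jun gave 0.55 ± 0.62 among Lepr+ cells (adjusted p = 0.990) and -0.11 ± 0.62 among Lepr- cells (adjusted p = 0.984).

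Junb (ENSMUSG00000052837.6, chromosome 8 from 84974484 to 84978718), known as a brake on expansion of blood stem cells, averaged 54.8 ± 34.6 CPM in Lepr+ HSC, compared with 35.9 ± 12.3 CPM in Lepr- HSC (SD, n = 5 libraries each, here and for all group means below). In Lepr+ MPP it averaged 46.6 ± 21.6 CPM, compared with 45.9 ± 21.9 CPM in Lepr- MPP. The highest library was Lepr+ HSC replicate 5 at 110.3 CPM. Junb did not pass in any comparison (adjusted p from 0.858 to 1.00), nor did Jund (ENSMUSG00000071076.6, chromosome 8 from 70698949 to 70700616), which is usually expressed more steadily than its relatives. Jund averaged 6.32 ± 4.50 CPM in Lepr+ HSC, compared with 5.25 ± 2.32 CPM in Lepr- HSC. In Lepr+ MPP its mean was 4.79 ± 2.14 CPM, compared with 4.86 ± 2.73 CPM in Lepr- MPP (adjusted p from 0.982 to 1.00). Its level is uncertain, because the reads carry no strand and 877 of its 1668 exon bases overlap Gm11175 on the other strand, which had 0 counts in all 20 libraries. Smaller overlaps touch Jun (232 bases with Junos), Junb (173 bases with Prdx2) and Dusp1 (11 bases with Ergic1).

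Egr1 encodes a zinc finger factor induced through serum response factor. It (ENSMUSG00000038418.7, chromosome 18 from 34859823 to 34864984, 2 exons) had 43.4, 57.5, 77.2, 61.9 and 99.4 CPM in replicates 1 to 5 of Lepr+ HSC, against 19.2, 15, 31.6, 23.5 and 21.3 CPM in Lepr+ MPP. Every Lepr+ HSC library lay above every Lepr+ MPP library. Egr1 had 30.2, 39.6, 65.7, 49.9 and 51.7 CPM in Lepr- HSC, compared with 14.9, 11.6, 29.7, 44.8 and 21.2 CPM in Lepr- MPP. Here replicate 4 of Lepr- MPP, at 44.8 CPM, stood above 2 of the Lepr- HSC libraries, so the groups overlapped. Egr1 averaged 67.9 ± 21.3 CPM in Lepr+ HSC, compared with 22.1 ± 6.15 CPM in Lepr+ MPP. In Lepr- HSC its mean was 47.4 ± 13.4 CPM, compared with 24.4 ± 13.3 CPM in Lepr- MPP.

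The rise of Egr1 in Lepr+ HSC over Lepr+ MPP was 1.62 ± 0.34 on the log2 scale (adjusted p = 0.0341) and 1.62 ± 0.24 with the block (adjusted p = 0.00282), higher in 5 of 5 pairs. DESeq2 gave an adjusted p of 0.000571 and voom 0.0292. With group only, the call was lost, at an adjusted p from 0.0586 to 0.127, when any of 8 libraries was left out, Lepr+ HSC replicate 2, 3, 4 or 5 or Lepr+ MPP replicate 1, 2, 4 or 5, and the log2 fold change then ran from 1.44 to 1.67. The call with group only was also lost when any 1 replicate number was left out (adjusted p from 0.0732 to 0.254). With the block, the call held when each replicate number in turn was left out (adjusted p from 0.00427 to 0.0411). The log2 fold change was 1.62 in the June libraries (adjusted p = 0.564) and 1.63 in the July libraries (adjusted p = 0.903), and 1.45 when the 3 libraries set apart above were dropped (adjusted p = 0.215). With the mean of the stromal and endothelial markers as a covariate it was 1.55 ± 0.48 (adjusted p = 0.636). Markers of megakaryocytes moved with the same comparison. The 8 markers summed to 517 to 1901 CPM in Lepr+ HSC, compared with 93.6 to 326 CPM in Lepr+ MPP, where Gp1bb was at 0, and Pf4 and Vwf, 2 of the 7 tested, rose. Their part in the Egr1 result was not tested.

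In Lepr- HSC over Lepr- MPP, Egr1 gave 0.96 ± 0.33 (adjusted p = 0.178) with group only and 1.03 ± 0.24 with the block, which passed (adjusted p = 0.0139), higher in 5 of 5 pairs as were 12.8% of all genes. The megakaryocyte markers summed to 1907 to 4884 CPM in Lepr- HSC, compared with 107 to 237 CPM in Lepr- MPP, and 5 of the 7 tested rose with group only. Their part in the Egr1 result was not tested here either. Leaving out Lepr- MPP replicate 4 brought Egr1 to 1.29 (adjusted p = 0.0331) with group only. With the block, it passed without replicate 4 (adjusted p = 0.00286) and did not pass without replicate 1, 2, 3 or 5 (adjusted p from 0.0612 to 0.112). The June and July libraries gave 1.16 and 0.62. Within HSC, Egr1 was higher in Lepr+ than in Lepr- in 5 of 5 pairs, by 0.52 ± 0.33 (adjusted p = 0.938) and by 0.53 ± 0.23 with the block (adjusted p = 0.381). Within MPP the change was -0.14 ± 0.33 (adjusted p = 1.00). The difference between the Lepr changes of HSC and MPP was 0.66 ± 0.47 (adjusted p = 1.000), so the Egr1 step between cell types was not shown to differ between Lepr+ and Lepr- cells.

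Ier2, a small nuclear protein of the early response, was higher in the Lepr+ library of every replicate pair. Ier2 (ENSMUSG00000053560.5, chromosome 8 from 84661331 to 84662852, 1 exon) had 118, 166, 116, 219.98 and 224 CPM in replicates 1 to 5 of Lepr+ HSC, against 99.99, 94.3, 73.1, 133 and 125 CPM in Lepr- HSC. It had 117, 109, 127, 255 and 158 CPM in Lepr+ MPP, compared with 86.2, 101, 96.2, 191 and 149 CPM in Lepr- MPP. In both cell types this held in 5 of 5 pairs, while the groups overlapped, and replicates 4 and 5 were the highest in all 4. Of all tested genes, 6.83% were higher in 5 of 5 pairs of HSC, as were Jun, Egr1 and Ier2 of the 10, and 5.73% in 5 of 5 pairs of MPP, as was Ier2 alone of the 10.

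In Lepr+ over Lepr- HSC the log2 fold change of Ier2 was 0.68 ± 0.28 with group only (adjusted p = 0.581) and 0.66 ± 0.13 with the block, which passed (adjusted p = 0.0261). The call with the block was lost when any replicate number was left out (adjusted p from 0.0504 to 0.182), with changes from 0.61 to 0.78. June and July libraries gave 0.62 and 0.80, and the covariate of stromal and endothelial markers 0.95. Megakaryocyte marker sums did not overlap in this comparison, at 517 to 1901 CPM in Lepr+ HSC, compared with 1907 to 4884 CPM in Lepr- HSC, and 0 of 7 passed with group only while Itga2b and Pf4 fell with the block. Of 10 stem cell and gate markers, 2 rose with group only, Hlf and Procr, and 0 fell, and with the block Ly6a and Mecom rose too. The part of these differences in the Ier2 result was not tested. In Lepr+ over Lepr- MPP it was 0.30 ± 0.28 (adjusted p = 1.00) and 0.30 ± 0.13 with the block (adjusted p = 0.674). It was 0.04 without Lepr+ MPP replicate 4, -0.08 when the 3 libraries set apart above were dropped, and 1.23 ± 0.54 with the stromal and endothelial covariate (adjusted p = 0.838). The difference between the HSC and MPP changes of Ier2 was 0.39 ± 0.40 (adjusted p = 1.000). Between HSC and MPP, Ier2 gave 0.14 ± 0.28 among Lepr+ cells (adjusted p = 0.997) and -0.25 ± 0.28 among Lepr- cells (adjusted p = 0.858).

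Dusp1 encodes a nuclear phosphatase that switches MAP kinases off again, an early brake on the same response. Dusp1 (ENSMUSG00000024190.7, chromosome 17 from 26505590 to 26562128) had 67.4, 54.3, 47.2, 35.2 and 124 CPM in replicates 1 to 5 of Lepr+ HSC, against 47.9, 44.8, 27, 56.6 and 58.2 CPM in Lepr- HSC. It had 61.4, 39.7, 40.3, 30.4 and 97.5 CPM in Lepr+ MPP, compared with 40.6, 36.6, 29.9, 37.8 and 83.8 CPM in Lepr- MPP. Replicate 5 was highest in all 4 groups, and the Lepr+ library was the higher in 4 of 5 pairs of each cell type, with replicate 4 the exception in both. Dusp1 gave 0.49 ± 0.37 in Lepr+ over Lepr- HSC (adjusted p = 0.992), 0.24 ± 0.37 in Lepr+ over Lepr- MPP (adjusted p = 1.00), 0.29 ± 0.37 in Lepr+ HSC over Lepr+ MPP (adjusted p = 0.995) and 0.04 ± 0.37 in Lepr- HSC over Lepr- MPP (adjusted p = 0.992). Without the 3 libraries the change in HSC was 0.13 ± 0.30. Dusp1 was higher in 5 of 5 pairs of Lepr+ HSC and MPP, as were 5.80% of all genes.

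Nr4a1, an orphan nuclear receptor, and Klf4, a zinc finger factor known from monocytes and pluripotent cells, stood lower and varied in their own ways. Nr4a1 (ENSMUSG00000023034.7, chromosome 15 from 101254269 to 101274795, 10 exons) had 9.73, 7.30, 8.97, 3.72 and 0 CPM in replicates 1 to 5 of Lepr+ HSC, against 14.1, 1.65, 10.3, 6.00 and 16.2 CPM in Lepr- HSC. Replicate 5 was lowest in Lepr+ HSC and highest in Lepr- HSC, and the change was -0.69 ± 0.80 (adjusted p = 1.000). Nr4a1 averaged 7.90 ± 5.73 CPM in Lepr+ MPP, compared with 8.75 ± 1.63 CPM in Lepr- MPP, and its 4 comparisons had adjusted p from 0.984 to 1.00.

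Klf4 (ENSMUSG00000003032.8, chromosome 4 from 55527143 to 55532466) was rarely detected in HSC, with 0.475, 0, 0.145, 0 and 0 CPM in replicates 1 to 5 of Lepr+ HSC, compared with 0.608, 0, 0.147, 0 and 0 CPM in Lepr- HSC. It had 0.946, 3.67, 1.12, 4.61 and 3.15 CPM in Lepr+ MPP, compared with 1.97, 2.16, 0.377, 0 and 0.577 CPM in Lepr- MPP. All Lepr+ MPP libraries lay above all Lepr+ HSC libraries, and with Egr1 this made 2 of the 10 genes whose groups did not overlap in that comparison, as for 2.13% of all genes. The other comparisons had 0 such members, against 1.62% of all genes in Lepr+ over Lepr- HSC, 1.64% in Lepr+ over Lepr- MPP and 6.23% in Lepr- HSC over Lepr- MPP. Klf4 did not pass in Lepr+ HSC over Lepr+ MPP (log2 fold change -4.28 ± 1.5, adjusted p = 0.322, lower in 5 of 5 pairs as were 5.68% of all genes). Over the 5 libraries of each group it had 17 counts in Lepr+ HSC, compared with 233 in Lepr+ MPP, a ratio scaled for library size of 0.0770 (95% exact interval 0.0441 to 0.126, counting error only). With the block it was -5.80 ± 1.64 (adjusted p = 0.102), and with the stromal and endothelial covariate -2.0 ± 1.81. Stromal markers in Lepr+ MPP replicates 1 to 5 summed to 159, 892, 756, 974 and 3373 CPM and endothelial ones to 164, 558, 252, 639 and 668 CPM, and Klf4, which vascular cells also express, was higher in replicates 2, 4 and 5 than in 1 and 3. The 10 monocyte and macrophage markers summed to 521 to 789.8 CPM in Lepr+ HSC, compared with 637 to 874 CPM in Lepr+ MPP, and 0 of them passed. The part of such cells in the Klf4 level was not tested beyond the covariate. In Lepr- HSC over Lepr- MPP the change was -2.61 ± 1.40 (adjusted p = 0.491), and 1.39 ± 1.33 in Lepr+ over Lepr- MPP (adjusted p = 1.00).

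Several of the genes followed the replicate number more than the group. Over the 20 libraries, the 5 replicate numbers held 86.4% of the variation of Jun in log2 CPM, 80.6% of that of Jund, 68.4% of Dusp1, 64.3% of Fosb and 61.3% of Ier2, where the median gene had 37.1%. For Jun this was the 99.6 percentile of all tested genes and for Jund the 97.9 percentile, and the 4 groups held 8.0% and 1.9%. Egr1 and Klf4 stood at the other end, with 67.9% and 62.9% of their variation between groups (97.6 and 96.4 percentiles, median gene 15.7%). Fos (60.3%) and Nr4a1 (62.6%) had most of their variation in neither, against a median of 39.5%, and Junb was split between replicate number (42.6%) and the rest (49.6%). Klf4, Fosb and Fos had 0 counts in 7, 5 and 4 of the 20 libraries, so their shares rest partly on libraries without counts.

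**Figure D3:**
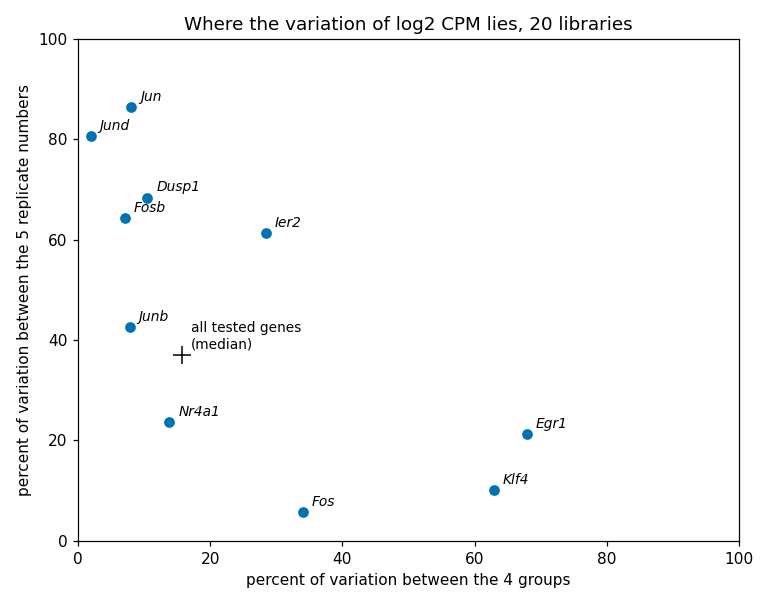
Percent of the variation of log2 CPM over 20 libraries that lay between the 4 groups (x axis) and between the 5 replicate numbers (y axis), 1 point per gene and a cross for the median of all tested genes. Jun and Jund lie at the upper left (86.4% and 80.6% between replicate numbers) and Egr1 and Klf4 at the lower right (67.9% and 62.9% between groups). Klf4 had 0 counts in 7 of the 20 libraries.

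The mean of Jun over the 4 libraries of a number was 71.0, 28.6, 20.01, 34.4 and 113 CPM for replicates 1 to 5, with no library of numbers 1 and 5 below 60.5 CPM and none of 2, 3 and 4 above 45.9 CPM. Dusp1 averaged 91.0 CPM in replicate 5 and 36.1 to 54.4 CPM in the others, and Jund 7.57 and 8.72 CPM in replicates 4 and 5 and 2.81 to 4.38 CPM in 1, 2 and 3. Ier2 averaged 199.8 CPM in replicate 4 and 164 CPM in replicate 5, against 103 to 118 CPM in the rest. The high numbers thus differed between genes, 1 and 5 for Jun but 4 and 5 for Jund and Ier2. Numbers 1, 3 and 5 carried dates in June and 2 and 4 in July, so high and low Jun were both found in June. What the dates mark is not stated. Replicates 4 and 5 had the fewest counts (11061285 to 15052009 and 9532993 to 13753727, against 18174638 to 31589794), shares of read pairs assigned to no gene that reached higher (up to 38.1% and 38.7%, against at most 30.4%) and mitochondrial shares of 1.33 to 3.03% and 1.77 to 4.46%, against 0.787 to 2.12% in the others. The part of these measures in the levels was not tested.

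**Figure D4:**
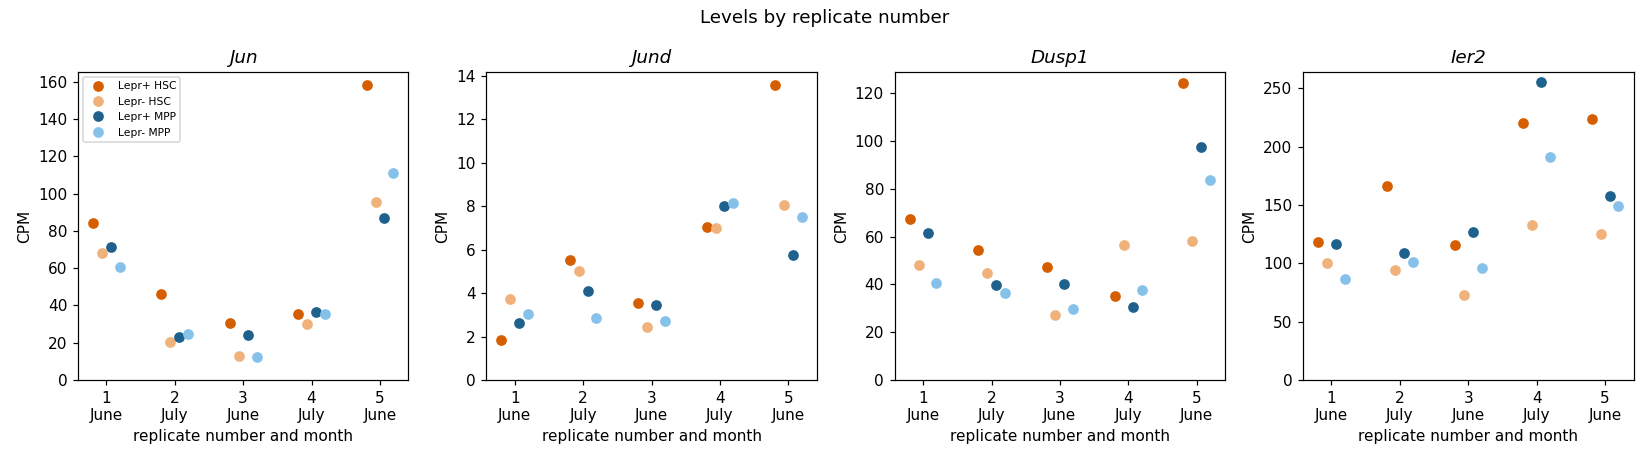
CPM of Jun, Jund, Dusp1 and Ier2 (y axis) by replicate number and month (x axis), 1 point per library, coloured by group. Jun stood at 60.5 CPM or more in replicates 1 and 5 and at 45.9 CPM or less in 2, 3 and 4, while for Jund, Dusp1 and Ier2 ranges of some replicate numbers overlapped (Ier2 at 133 to 255 CPM in replicate 4 and 125 to 224 CPM in replicate 5).

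By the correlations below, the 10 genes did not move as a single unit across libraries. After group means were taken off, the correlation of each gene with the mean of the other 9 over the 20 libraries was 0.46 for Jun, 0.39 for Fosb, 0.32 for Dusp1, 0.30 for Ier2 and 0.29 for Fos, and lay between -0.13 (Nr4a1) and 0.10 (Jund) for the rest. These libraries share depth and replicate pools, and the means include Fos, Fosb and Klf4, with 0 counts in 4, 5 and 7 libraries. The effect of such low counts on the correlations was not tested, and the values are descriptions. Outside all gene lists, the genes most like the mean of the 10, among 9428 with at least 10 CPM, were the mitochondrial genes mt-Cytb (r = 0.84), mt-Co1 (0.81) and mt-Nd4 (0.76), with Ak6 (0.79), D8Ertd738e (0.78), AC121821.1 (0.74), Isg15 (0.74) and 2810403D21Rik (0.73). The 99th percentile of r was 0.60.

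Other genes of the same response were read as lists. Of 15 further AP-1 and related bZIP genes, 12 were measured well enough to test and 0 passed in any comparison with group only in edgeR. At an unadjusted p under 0.05 there were 0 in Lepr+ over Lepr- HSC, 1 in Lepr+ over Lepr- MPP, 2 in Lepr- HSC over Lepr- MPP and 3 in Lepr+ HSC over Lepr+ MPP. DESeq2 called 1 in each of the last 3 comparisons and voom called 0. Jdp2, a repressor that pairs with Jun, had 18.4 ± 6.47 CPM in Lepr- HSC, compared with 45.4 ± 24.6 CPM in Lepr- MPP (-1.30 ± 0.36, adjusted p = 0.0614), and passed with the block (-1.23 ± 0.34, adjusted p = 0.0362), though not without 3 of the 5 replicate numbers. The list's median was 0.27 in Lepr+ over Lepr- HSC, 0.15 in Lepr+ over Lepr- MPP, -0.10 in Lepr- HSC over Lepr- MPP and -0.07 in Lepr+ HSC over Lepr+ MPP.

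Calls in the other lists came mostly from Lepr- HSC over Lepr- MPP, where with group only all of them fell, opposite in sign to Egr1. Of the 82 tested genes of the 5 lists, the AP-1 list included, 6 were called there, against 2.73% of all genes. This comparison also had the most calls over all genes, 451, against 17, 33 and 77 in the others. Of 24 feedback inhibitors and mRNA decay factors, all tested, 2 fell there. They were the MAP kinase phosphatases Dusp2, with 94.8 ± 23.3 CPM in Lepr- HSC, compared with 178 ± 17.5 CPM in Lepr- MPP (-0.91 ± 0.19, adjusted p = 0.00919), and Dusp5, with 8.23 ± 3.42 CPM in Lepr- HSC, compared with 28 ± 6.65 CPM in Lepr- MPP (-1.77 ± 0.40, adjusted p = 0.0170). Of 18 further early transcription factors, 15 were tested and 1 fell, Csrnp1 (22.8 ± 6.84 CPM in Lepr- HSC, compared with 54.2 ± 9.66 CPM in Lepr- MPP, -1.25 ± 0.28, adjusted p = 0.0142). Among 11 tested effectors of 12, the kinase gene Pim1 fell (-1.18 ± 0.29, adjusted p = 0.0324). Of 20 upstream genes of the MAP kinase, serum response factor and CREB routes, 2 fell, Elk3, an Ets partner of serum response factor (-1.11 ± 0.28, adjusted p = 0.0323), and Rps6ka1, the kinase RSK1 (-0.71 ± 0.19, adjusted p = 0.0429). All 6 genes were lower in Lepr- HSC in 5 of 5 pairs, which restates the values that gave the calls. The share of all genes that were lower in 5 of 5 of these pairs was not computed. The megakaryocyte marker sums given above differed in the same comparison, and their part was not tested. The calls of Csrnp1 and Dusp2 held without each of the 20 libraries. That of Dusp5 was lost without Lepr- HSC replicate 3 (adjusted p = 0.0555). Pim1 did not pass without any 1 of Lepr- HSC replicates 2, 3 and 5 and Lepr- MPP replicates 1, 2, 4 and 5 (adjusted p up to 0.0991). Nor did Elk3 without any 1 of Lepr- HSC replicates 2 to 5 and Lepr- MPP replicates 1 to 4 (up to 0.102). Rps6ka1 was lost without any 1 of Lepr- HSC replicates 1, 3, 4 and 5, Lepr- MPP replicates 1, 2, 3 and 5, Lepr+ HSC replicates 3 and 4 and Lepr+ MPP replicate 1 (up to 0.126). With the block, where 7.50% of all genes were called, 5 of the 24 feedback genes fell, Dusp2, Dusp5, Dusp6, Socs3 and Zfp36l2. Also with the block, Myc fell beside Csrnp1, Stat3 and Mrtfa fell beside Elk3 and Rps6ka1, and the kinase gene Plk2 and the chaperone gene Hspe1 rose. Of these calls with the block, those of Dusp6, Socs3, Myc and Mrtfa were lost without any 1 of 4 replicate numbers and those of Plk2 and Hspe1 without any 1 of 3.

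In Lepr+ over Lepr- HSC, 0 of the 82 tested genes of these 5 lists passed with group only, with 14 at an unadjusted p under 0.05 (17.1%, where 6.96% of all genes were), 2 called by DESeq2 (2.44%, against 1.10% of all genes) and 0 by voom (0.109% of all genes). With the block, Klf10, a factor of the TGF-beta early response, passed at 365 ± 157 CPM in Lepr+ HSC, compared with 189.98 ± 53.4 CPM in Lepr- HSC (0.88 ± 0.19, adjusted p = 0.0343). So did Dusp2, at 137 ± 24.7 CPM in Lepr+ HSC, compared with 94.8 ± 23.3 CPM in Lepr- HSC (0.54 ± 0.12, adjusted p = 0.0394), and Zfp36l2, an mRNA decay factor, at 295 ± 27.3 CPM in Lepr+ HSC, compared with 221 ± 25.6 CPM in Lepr- HSC (0.42 ± 0.08, adjusted p = 0.0261). The block called 1.02% of all genes there. All 3 were higher in 5 of 5 pairs, as were 6.83% of all genes, which adds no support since the block uses the same pairs. Each of the 3 calls was lost when any replicate number was left out (adjusted p from 0.0584 to 0.215). In Lepr+ over Lepr- MPP, Ccn2, a matricellular gene strongly expressed in stroma and endothelium, was the call of the lists, with 1034 counts in Lepr+ MPP and 2 in Lepr- MPP, a ratio scaled for library size of 542 (95% exact interval 149.8 to 4484). Ccn2 was 1 of the 82 tested, where 0.200% of all genes were called. Its adjusted p was 0.0299 with group only and above 0.05 with the block. It did not pass without any 1 of Lepr+ MPP replicates 2, 4 and 5, Lepr- MPP replicates 1 to 4 and Lepr- HSC replicate 1 (adjusted p up to 0.132), nor without the 3 libraries set apart above (adjusted p = 0.0881). Ccn2 moved with the stromal sums given above, whose part was not tested. In Lepr+ HSC over Lepr+ MPP, 0 of the 82 passed with group only, with 19 at an unadjusted p under 0.05 (23.2%, where 7.89% of all genes were), 4 called by DESeq2 (4.88%, against 2.08% of all genes) and 0 by voom (0.763% of all genes). Dusp2 fell there with the block (-0.54 ± 0.12, adjusted p = 0.0289), a call lost without any 1 replicate number. Of 14 heat shock genes, which also respond to handling stress, 0 passed with group only in any comparison, with at most 1 at an unadjusted p under 0.05 and 0 by DESeq2 and voom. Their medians were -0.25 in Lepr+ over Lepr- HSC, -0.14 in Lepr+ over Lepr- MPP, 0.14 in Lepr- HSC over Lepr- MPP and 0.09 in Lepr+ HSC over Lepr+ MPP. Of them Hspd1 had 280.4 ± 74.7 CPM in Lepr+ HSC, compared with 396 ± 102 CPM in Lepr- HSC (-0.50 ± 0.19, adjusted p = 0.514), and Hspa1b 5.55 ± 7.40 CPM in Lepr- HSC, compared with 0.692 ± 0.425 CPM in Lepr- MPP (2.99 ± 1.26, adjusted p = 0.308).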

How the data were processed

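RNA of 20 sorted samples was read as deposited counts of read pairs per gene, 1 file per library. Per the labels' protocols, cDNA was made with SMART-Seq v4 and libraries with Nextera XT, without strand, and sequenced as read pairs. FastQC 0.11.8, cutadapt 2.1, STAR 2.7.1a, HTSeq 0.11.2, DESeq2 (no version) and GRCm38 are named per the submitters' processing notes. The sources used here give neither the counting mode nor what was merged. The 5 closing lines of no gene (21.4 to 38.7% of read pairs) were left out of library sizes and tests. Symbols came from GENCODE M21, which matched 55394 of 55573 identifiers without version numbers and 55094 with them, and Ier2 needed the former. CPM used library sizes scaled by TMM.

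Tests were made in edgeR 4.0.16 (R 4.3.3) by quasi-likelihood on all 20 libraries with group as the only term, filterByExpr (minimum count 10, minimum total 15) and adjustment over 16509 genes. Log2 fold changes carry the fitted SE. Alternatives used DESeq2 1.42.0, limma 3.58.1, other scaling, no filter, left-out libraries, single months, a replicate block and a marker covariate. The fit was tested on simulated data. Variation shares came from sums of squares of log2 CPM with a prior count of 2.

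The replicate number was read as 1 pool of 2 mice sorted into all 4 gates, from the design text and the shared date. As a check, deviations from group means were correlated between libraries of different groups. The median was 0.264 (-0.065 to 0.562) in 30 pairs that shared a number and -0.086 in 120 that did not, and for 15 of 20 libraries the nearest others were those sharing the number. No 2 libraries were identical. With group only, the p-values measure the spread between libraries of a group, each from another pool, and ignore which libraries share a pool. With the block, they measure the spread left after differences between pools were taken off. Intervals and the level of 3 counts cover counting error only, since no molecular identifiers were used.

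The members and lists were chosen with earlier results of these data known. Named genes were all 10 members, the genes of each other list past 0.05 with group only in any comparison, or up to 2 with the smallest p where none passed, and the 8 most like the members. Genes named for a call with the block were added after their values were seen. Some genes that this rule names are not reported here.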

Additional observations from a re-analysis of the deposited data

Results flagged for a closer look

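Each gene was examined in each group of 5 libraries for a single library far from the other 4. Of 40 such sets, 6 held one. The rule flags about 1 in 20 by chance, a rate that need not hold for skewed values near 0, as in Fos, Fosb and Klf4. No excess over chance is read from the 6. Fos in Lepr- HSC replicate 1 had 4.32 CPM, where the next library had 0.921 CPM. Klf4 in the same library had 0.608 CPM, with 0.147 CPM next. Fosb in Lepr+ MPP replicate 5 had 2.81 CPM, with 0.279 CPM next. Junb in Lepr- MPP replicate 4 had 84.6 CPM, with 40.5 CPM next, and Nr4a1 in that library had 11.6 CPM, with 8.73 CPM next. Dusp1 in Lepr- MPP replicate 5 had 83.8 CPM, with 40.6 CPM next.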

How the results depend on the processing

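Of 1970 fold changes of the 10 genes recomputed over 40 settings, 1948 kept their side of the threshold, 4 newly passed, 18 no longer passed and none that was called changed sign. Among uncalled ones 168 changed sign, 25 of them above 0.5 on the log2 scale. In Lepr+ HSC over Lepr+ MPP the count of called members, 1 with group only, was 0 in the June libraries alone, 0 in the July libraries alone, 0 without the 3 libraries least like their groups, 0 with only the 2 groups fitted and 0 with the stromal and endothelial covariate, and without 1 library or 1 replicate number it ran from 0 to 1. With the replicate block it was 1 in Lepr+ HSC over Lepr- HSC and 1 in Lepr- HSC over Lepr- MPP, against 0 without the block in each, and the block changed no other call of a member. Without 1 library the count in Lepr- HSC over Lepr- MPP ran from 0 to 1. The block without each replicate number was chosen after seeing the data, and in Lepr- HSC over Lepr- MPP it gave 1 without replicate 4 and 0 without any other. Fits on single months or without replicates have fewer samples. Fosb, Klf4 and Fos had 190 to 971 counts in all, the lowest of the 10, and what set their errors was not tested.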
